A study of Mus musculus with 2 samples.

Results

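A set of 9 genes was followed in LSK cells (Lin- Sca-1+ c-Kit+), which include the blood stem cells and multipotent progenitors of mouse marrow. They are the forkhead factors Foxo1, Foxo3 and Foxo4, and Txnip, Sesn1, Sesn3, Tsc1, Tsc22d3 and Ddit4, which restrain growth signalling or respond to FOXO factors, stress or glucocorticoids. The 9 genes were listed by symbol, with no threshold on their values, out of 39017 genes in the count table. They were chosen with earlier results of these data known. All 9 were found, each as 1 row, and all passed the minimum of 20 counts summed over both libraries, as did 13880 genes in all. The control library came from a pool of 12 WT mice and the other from a pool of 6 miR-146a-/- mice. Both pools had the C57BL/6J background and an age of 10 to 14 weeks. The deletion is recorded as the genotype of the animals, without a cell type that would limit it. Each genotype had 1 library, so no difference here has a replicate check, no test was possible and no p-value is given.

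FOXO factors are transcription factors that growth factor signalling keeps out of the nucleus. The kinase AKT, activated through PI3K, phosphorylates them, and when that signal is low they enter the nucleus and switch on genes of cell cycle arrest, antioxidant defence and survival. AKT also inhibits the TSC complex, the brake on the growth kinase complex mTORC1. In blood stem cells FOXO factors and the TSC complex are known for holding cells in quiescence and keeping reactive oxygen low. The deleted microRNA is induced by NF-kB and represses messenger RNAs that pair with its seed, bases 2 to 8, shown in capitals because the gene tables were searched for its complement.

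mmu-miR-146a-5p: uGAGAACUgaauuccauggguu

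Of the 9 genes, Ddit4 and Tsc22d3 were called higher in the miR-146a-/- library, 0 were called lower and 7 were neither. A gene was called when the whole 95% interval of its ratio, which covers counting error only, lay beyond 1.5-fold, or 0.58 on the log2 scale. By this rule 5.35% of all measured genes were called higher and 1.53% lower. The members' median log2 ratio, miR-146a-/- over WT, was 0.26, against -0.01 over all measured genes. Intervals lay wholly above 0 for 7 of the 9, as for 28.0% of all measured genes. The interval of Foxo4 lay wholly below 0, as did those of 29.1% of all measured genes, and that of Sesn1 spanned 0. With 2 calls among 9 genes, the description rests on Ddit4 and Tsc22d3 themselves.

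**Figure D1:**
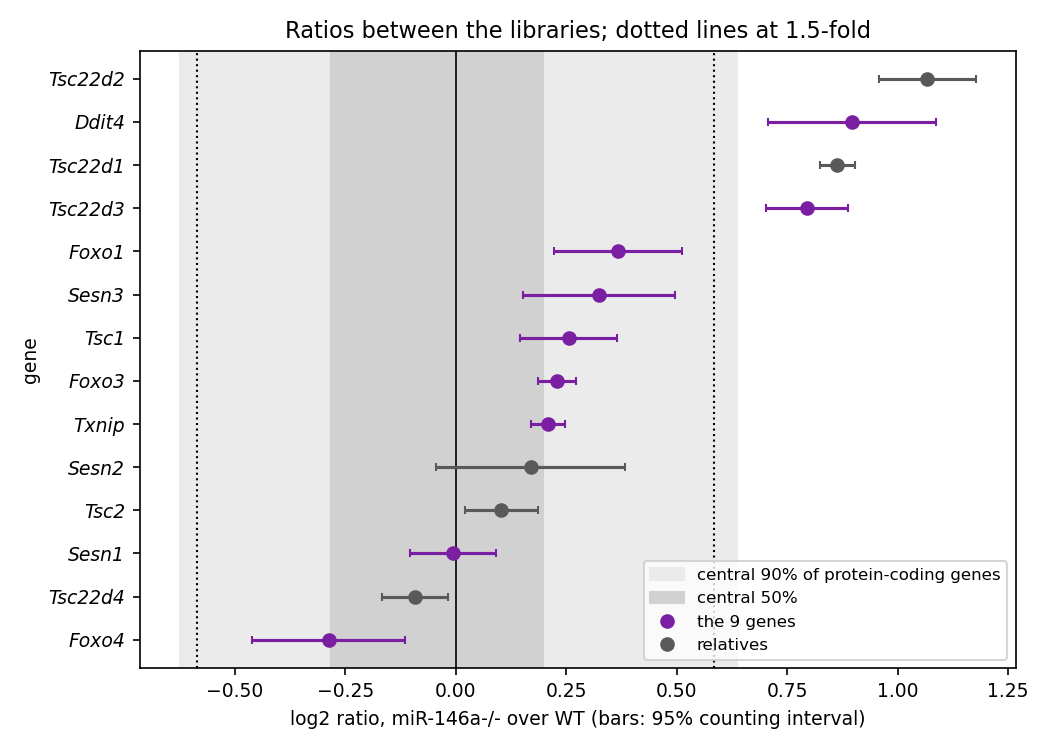
Log2 ratio of miR-146a-/- over WT on the horizontal axis for the 9 genes (purple) and 5 relatives (grey), 1 gene a row. Bars are 95% counting intervals, shading is the central 90% and 50% of 10365 protein-coding genes with at least 200 counts, and dotted lines mark 1.5-fold. Ddit4, Tsc22d3, Tsc22d1 and Tsc22d2 lie beyond the dotted line. These positions are by TMM scaling.

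The libraries held 35069136 counts in WT and 22231389 in miR-146a-/-. Protein-coding genes took 81.4% of the WT total and 51.5% of the miR-146a-/- total, while Gm42418, a feature in a ribosomal RNA repeat, made up 2.13% and 27.2%. Levels and ratios below are therefore TMM-normalised CPM, counts divided by a library size that sets aside such features. Scaled by total counts, the median of all measured genes moved from -0.01 to -0.83 and 8 of the 9 genes had a negative ratio, Ddit4 being the exception at 0.08. Higher genes made 77.8% of all calls by TMM and 1.94% by total counts. The part of Gm42418 in the shift from total counts to TMM was not tested. The microRNA gene itself, Mir146, had 0 counts in both libraries, which allows up to 3 counts in each, so it gave no check of the labels. All 10 LSK and stem cell markers were measured and 0 were called. Of their intervals 7 lay wholly above 0, among them Kit (558 and 728 CPM) and Ly6a, which encodes Sca-1 (66.8 and 74.7 CPM), and 3 wholly below 0, namely Cd34 (-0.19), Flt3 (-0.23) and Procr (-0.39). The 9 T and NK cell markers together came to 41.6 and 42.1 CPM, most of it Nkg7 (1602 and 530 counts). Cd4 (86 and 68 counts) was called higher at 1.13, and Cd3d, Cd3e, Cd3g and Cd8a had 0 counts in both libraries. Of 8 B cell markers, the B cell factor Pax5 had 0 and 1 counts, and all 8 together came to 17.7 and 18.5 CPM, nearly all of it Cd79b (757 and 263 counts). Fcer2a (18 and 27 counts) was the 1 of 4 measured B cell markers called higher, at 2.02. Monocyte and macrophage markers summed to 88.3 and 92.2 CPM, and 1 of 7 measured, Ly6c2 (78 and 95 counts), was called higher at 1.75. Neutrophil markers summed to 14.1 and 6.22 CPM, with 3 of 6 measured called lower and 0 higher. The part of these cells in the ratios below was not tested. Mature blood cells also express several of the 9 genes, and in these bulk samples fewer cells of a type and less RNA per cell cannot be told apart.

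**Figure D2:**
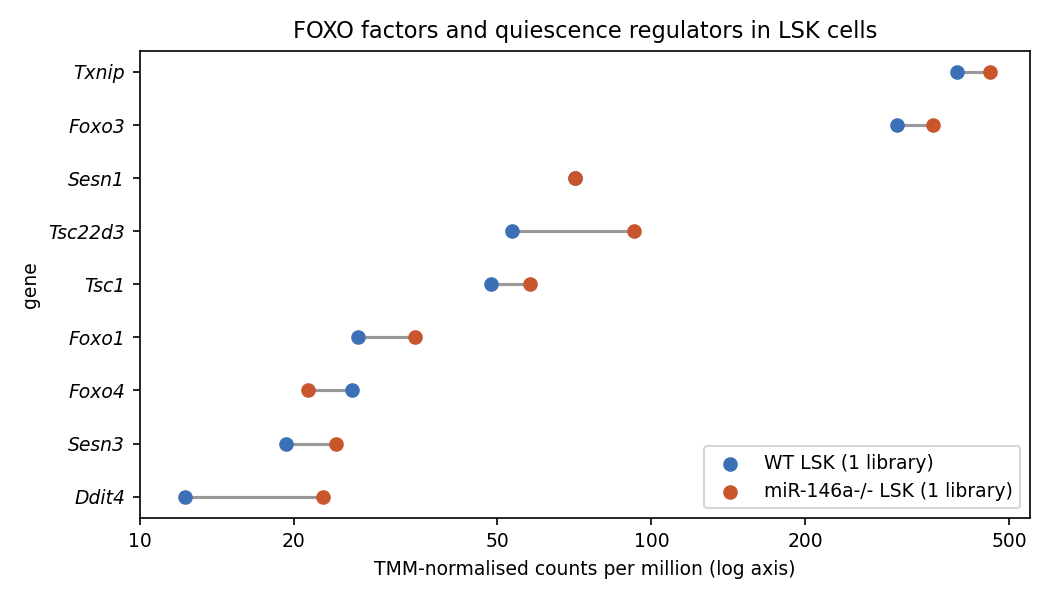
TMM-normalised CPM on a log axis for each of the 9 genes, with 1 point for the WT library (blue) and 1 for the miR-146a-/- library (orange). Tsc22d3 and Ddit4 show the widest gaps, the points of Sesn1 coincide, and Foxo4 alone has its orange point clearly on the left.

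Foxo3 was by far the most abundant FOXO transcript. It encodes the family member most closely tied to stem cell maintenance. It lies on chromosome 10 from 42181841 to 42276755 on the minus strand (mm10) and gave 14102 counts for WT and 5931 for miR-146a-/-, or 303 and 355 CPM. The log2 ratio was 0.23 (95% interval 0.19 to 0.27), inside the 1.5-fold bounds. Foxo1, on chromosome 3 from 52268336 to 52353221 on the plus strand, had 1246 and 577 counts, or 26.7 and 34.5 CPM. Its ratio of 0.37 (0.22 to 0.51) was the highest of the FOXO genes and was not called. Foxo1 is best known in blood for its part in lymphocyte development and shares many targets with Foxo3. Foxo4, on the X chromosome from 101254528 to 101260873 on the plus strand, had 1211 and 356 counts, or 26.0 and 21.3 CPM. It was the lowest of the 9 genes at -0.29 (-0.46 to -0.12). The fourth mammalian gene, Foxo6, best known from the brain, had 12 and 5 counts, under the minimum, so no ratio is given.

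Foxo4 lay below its relatives in a comparison that library scaling does not touch. Its share of the summed counts of Foxo1, Foxo3 and Foxo4 was 7.31% in WT (95% Clopper-Pearson interval 6.92 to 7.72%) and 5.19% in miR-146a-/- (4.67 to 5.74%). The share of Foxo3 was 85.2% (84.6 to 85.7%) and 86.4% (85.6 to 87.2%), and that of Foxo1 7.52% (7.13 to 7.94%) and 8.41% (7.76 to 9.09%). The log2 ratio of Foxo3 exceeded that of Foxo4 by 0.52 (95% Woolf interval 0.34 to 0.69) and that of Foxo1 did so by 0.66 (0.43 to 0.88). Foxo1 and Foxo3 differed by 0.14, with an interval of -0.01 to 0.29. Per kilobase of exon, which allows levels of different genes to be compared, Foxo3 made 79.1% of the FOXO level in WT and 82.3% in miR-146a-/-, Foxo4 14.8% and 10.7%, and Foxo1 6.11% and 6.99%. So Foxo4 ranked above Foxo1 in both libraries once length was counted.

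**Figure D3:**
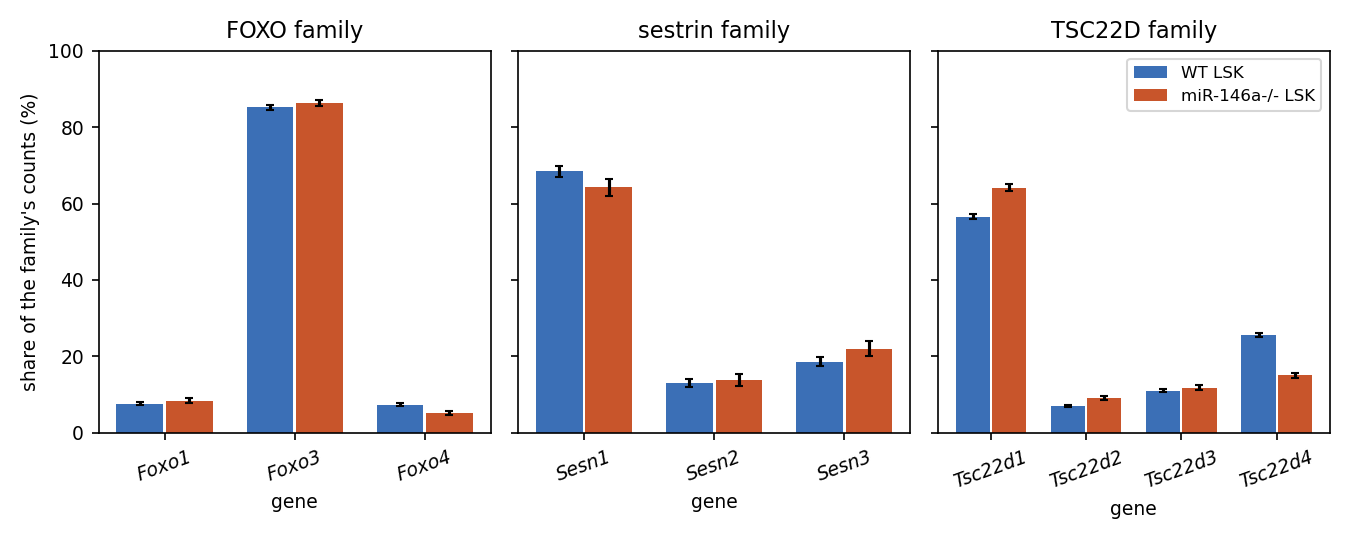
Share of each gene in the summed counts of its family, in percent, for WT (blue) and miR-146a-/- (orange), 1 library each, with 95% Clopper-Pearson intervals as bars. Foxo3 takes over 80% of FOXO counts in both libraries, and Tsc22d4 has the widest gap, from 25.6% in WT to 14.98%.

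Transcript length moved with these ratios. Split by length into deciles, protein-coding genes had a median log2 ratio of -0.21 at the short end and 0.20 at the long end. Foxo1, Foxo3, Sesn3 and Tsc1 all fell in the decile of longest transcripts. Genes of the same length and GC decile had a median of 0.30 for Foxo3, 0.26 for Foxo1, 0.22 for Sesn3 and 0.22 for Tsc1. Less that median, the ratio of Foxo3 turned from 0.23 to -0.07, Foxo1 was at 0.11, Sesn3 at 0.11 and Tsc1 at 0.04. The 4 small positive ratios were therefore close to those of other long genes. For Foxo4 the like median was -0.02, so that it stayed at -0.26. With that adjustment its gap to Foxo3 narrowed from 0.52 to 0.19 and its gap to Foxo1 from 0.66 to 0.37. Sesn1 was at 0.03, so the gap between Sesn3 and Sesn1, 0.33 as measured, came to 0.08. That between Tsc22d3 and Tsc22d2 went from -0.27 to 0.02. These adjusted gaps were computed after the data were seen. The part of length in these ratios was not tested further.

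Each gene's longest 3' untranslated region was searched for a match to the microRNA seed, since pairing there is how the deleted microRNA could act directly. Only Foxo3 held the 7-base match AGTTCTC, 1 of the 9 genes, against 12.5% of 12249 measured protein-coding genes with such a region. The match begins at base 1592 after the stop codon, on chromosome 10 from 42184733 to 42184739 on the minus strand (mm10). It is printed with its flanks, the match in capitals.

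Foxo3 site: tccccgcttgAGTTCTCgccattgcct

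The ratio of Foxo3 with this match, 0.23, compared with a median of 0.02 over all genes that held one and -0.04 over genes that did not. These values are not adjusted for length. Less the median of genes of its length and GC decile, Foxo3 was at -0.07, so 0.23 does not set it above other long genes. Ddit4 and Tsc22d3, the genes called higher, held 0 such matches. The shorter match GTTCTC occurred 3 times in Foxo1, 3 times in Foxo3 and 1 time each in Txnip, Sesn3, Tsc1 and Ddit4. Foxo4, Sesn1 and Tsc22d3 held 0 of it. Its share over all genes was not computed. A match of letters is a description and does not show that the microRNA binds there.

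Txnip had the highest level of the 9 genes in both libraries. Its protein binds and inhibits thioredoxin, lowers glucose uptake and is known for keeping stem cells quiescent. FOXO factors are among its regulators. It lies on chromosome 3 from 96557957 to 96561883 on the plus strand and gave 18465 counts for WT and 7657 for miR-146a-/-, or 396 and 458 CPM. The log2 ratio of 0.21 (0.17 to 0.25) was precise in counting terms and well inside 1.5-fold. Of protein-coding genes with at least 200 counts, 75.8% had a lower ratio. After the adjustment for length and GC it was at 0.28. On the opposite strand Txnip is overlapped by Gm15441, which had 24 and 21 counts. Strand use in counting is not known, so reads of this pair cannot be told apart, but the antisense gene is small beside Txnip.

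The sestrins act upstream of mTORC1. They bind the GATOR2 complex, and Sesn1 and Sesn3 are known targets of p53 and FOXO factors, respectively. Sesn1, on chromosome 10 from 41809935 to 41908424 on the plus strand, had 3311 and 1183 counts, or 71.1 and 70.8 CPM. Its ratio of -0.0059 (-0.10 to 0.09) was the nearest to 0 of the 9 genes. Sesn3, on chromosome 9 from 14275067 to 14333101 on the plus strand, had 901 and 405 counts, or 19.3 and 24.2 CPM. It was at 0.33 (0.15 to 0.50), not called, and 0.33 above Sesn1 (Woolf interval 0.14 to 0.53). The stress-induced relative Sesn2 had 629 and 254 counts and a ratio of 0.17 (-0.05 to 0.38), between the other sestrins. Of sestrin counts, Sesn1 held 68.4% in WT (67.1 to 69.7%) and 64.2% in miR-146a-/- (62.0 to 66.4%), and Sesn3 held 18.6% (17.5 to 19.7%) and 21.99% (20.1 to 23.9%). Sesn3 also has the longest transcript of the 9 genes, and with length and GC adjusted for, its gap to Sesn1 was 0.08.

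Promoters were searched for the forkhead motif GTAAACA on both strands, and Txnip and Sesn1 held it. Of the 9 genes, 8 had 11 promoter entries of 300 bases in RefSeq (GRCm38.p6), from 250 bases before to 50 after a start site. The motif occurred in 2 of these 11 entries and in 3.65% of 32851 promoters in all. In Txnip it begins at position -121 from the start on the strand of the gene, and in Sesn1 at position 22 on the opposite strand, as TGTTTAC. Both genes had small ratios, 0.21 and -0.0059. The entries are chr3:96557707-96558006 and chr10:41810324-41810623 on the plus strand, with the motif in capitals.

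Txnip promoter: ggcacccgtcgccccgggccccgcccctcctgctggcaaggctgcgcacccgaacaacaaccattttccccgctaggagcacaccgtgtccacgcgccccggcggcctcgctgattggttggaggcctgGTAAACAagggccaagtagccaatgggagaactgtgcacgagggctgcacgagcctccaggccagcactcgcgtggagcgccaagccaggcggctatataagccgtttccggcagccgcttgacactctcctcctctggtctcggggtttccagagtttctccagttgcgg

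Sesn1 promoter: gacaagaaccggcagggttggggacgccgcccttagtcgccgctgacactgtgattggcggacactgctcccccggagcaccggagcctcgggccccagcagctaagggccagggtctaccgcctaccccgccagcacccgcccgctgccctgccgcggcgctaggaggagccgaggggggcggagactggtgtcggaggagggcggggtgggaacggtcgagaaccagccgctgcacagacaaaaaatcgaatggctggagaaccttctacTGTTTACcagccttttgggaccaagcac

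Tsc1 encodes hamartin, which with the Tsc2 product forms the TSC complex that turns off the small GTPase Rheb and with it mTORC1. Loss of Tsc1 is known to drive blood stem cells out of quiescence. It lies on chromosome 2 from 28641228 to 28691167 on the plus strand and had 2262 and 969 counts, or 48.6 and 58.0 CPM. The ratio was 0.26 (0.15 to 0.37). Tsc2 had 4351 and 1677 counts and a ratio of 0.10 (0.02 to 0.19). It overlaps Pkd1, which had 6486 and 2972 counts, so its count is uncertain. Neither gene of the complex was called.

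Ddit4 had the highest ratio of the 9 genes. It encodes REDD1, an inhibitor of mTORC1 that acts through the TSC complex and is induced by hypoxia, endoplasmic reticulum stress, DNA damage and glucocorticoids. The gene lies on chromosome 10 from 59949669 to 59951834 on the minus strand and gave 570 counts for WT and 381 for miR-146a-/-, or 12.2 and 22.8 CPM. The difference was 1.86-fold (1.63 to 2.12), a log2 ratio of 0.90 (0.71 to 1.09), above 97.7% of protein-coding genes with at least 200 counts. Unlike the long genes above, Ddit4 is short, and genes of its length and GC decile had a median of -0.17. Less that median it stood at 1.07. Its paralog Ddit4l had 20 and 4 counts and a ratio of -0.80 with an interval from -2.85 to 0.73, too few to place.

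Tsc22d3 was the other gene called higher. It encodes GILZ, a leucine zipper protein that glucocorticoids and FOXO factors induce and that restrains NF-kB and AP-1. It lies on the X chromosome from 140539528 to 140600659 on the minus strand and had 2485 and 1546 counts, or 53.3 and 92.5 CPM. The difference was 1.73-fold (1.63 to 1.85), a log2 ratio of 0.79 (0.70 to 0.89), above 96.9% of protein-coding genes with at least 200 counts. Ddit4 and Tsc22d3 differed from each other by 0.10, with a Woolf interval of -0.10 to 0.31. Both stood above Txnip, by 0.69 (0.50 to 0.88) and 0.59 (0.49 to 0.68), and these gaps are free of library scaling.

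The TSC22D relatives differed among themselves. Tsc22d1, which encodes a factor induced by TGF-beta, had 12868 and 8397 counts and was called higher at 0.86 (0.82 to 0.90). Tsc22d2 had 1574 and 1183 counts and was called higher at 1.07 (0.96 to 1.18). Tsc22d4 had 5822 and 1960 counts and was at -0.09 (-0.17 to -0.02). Tsc22d3 lay 0.89 above Tsc22d4 (Woolf interval 0.768 to 1.004), 0.07 below Tsc22d1 (a difference of -0.07, -0.17 to 0.03) and 0.27 below Tsc22d2 (-0.27, -0.41 to -0.13). The share of Tsc22d4 in the counts of the family was 25.6% in WT (25.03 to 26.16%) and 14.98% in miR-146a-/- (14.4 to 15.6%), while Tsc22d3 took 10.9% (10.5 to 11.3%) and 11.8% (11.3 to 12.4%). By total counts Tsc22d3 was at -0.027, so its direction depends on the scaling chosen, while its gap to Tsc22d4 does not.

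Foxo4 and Tsc22d3 are X-linked, and the pools differed in sex-linked transcripts. Counts of Xist, which coats the inactive X, were 10988 (WT) and 49105 (miR-146a-/-), for a log2 ratio of 3.64, and the Y-linked genes Ddx3y, Uty, Eif2s3y and Kdm5d, 4 in number, were called lower. The animals' sex is not in the labels. Over 471 measured X chromosome genes the median ratio was 0.02, with 12 called higher and 3 lower. Foxo4 at -0.29 and Tsc22d3 at 0.79 lay on opposite sides of that median. The part of pool makeup in their ratios was not tested.

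The promoters of the genes called higher are printed below, for Tsc22d3 only the entry that held a motif match. Ddit4 had 1 entry, chr10:59951721-59952020, and Tsc22d3 had 3 start sites, of which chrX:140600473-140600772 held a match to AGAACA, the hexamer of the glucocorticoid receptor element, as TGTTCT on the opposite strand (capitals), at position -185 from the start. That hexamer is short and occurred in 19.0% of all promoters, so its presence in 1 of 11 entries is a description only. The E-box CACGTG (7.15% of all promoters) and the cyclic AMP element TGACGTCA (1.79%) were in 0 of the 11 entries. Both genes lie on the minus strand.

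Ddit4 promoter: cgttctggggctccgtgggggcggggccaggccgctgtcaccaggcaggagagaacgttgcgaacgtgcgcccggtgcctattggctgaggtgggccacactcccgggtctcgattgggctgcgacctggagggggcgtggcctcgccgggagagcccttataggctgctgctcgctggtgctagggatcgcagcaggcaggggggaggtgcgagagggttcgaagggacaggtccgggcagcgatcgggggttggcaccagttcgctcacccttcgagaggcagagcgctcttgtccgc

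Tsc22d3 promoter: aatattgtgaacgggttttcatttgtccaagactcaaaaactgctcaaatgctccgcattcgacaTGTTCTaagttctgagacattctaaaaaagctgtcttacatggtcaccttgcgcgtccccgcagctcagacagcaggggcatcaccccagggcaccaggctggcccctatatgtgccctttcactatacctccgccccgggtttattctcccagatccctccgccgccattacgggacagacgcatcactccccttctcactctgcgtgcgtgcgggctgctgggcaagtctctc

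Levels of the 9 genes were ordered per kilobase of exon, as TPM (counts per kilobase, scaled to the same total over the measured genes of each library). In WT the order ran from Txnip (218) through Foxo3 (68.6), Sesn1 (30.6), Tsc22d3 (21.1), Foxo4 (12.8), Ddit4 (12.0), Tsc1 (7.04) and Foxo1 (5.30) to Sesn3 (2.17). Exact Poisson intervals of Foxo4 (12.1 to 13.5) and Ddit4 (11.0 to 13.0) overlapped, and those of all other neighbours were apart. In miR-146a-/- Tsc22d3 (16.1) stood above Sesn1 (13.4) and Ddit4 (9.82) above Foxo4 (4.62), each with intervals that did not overlap, while the other genes kept their order. On this scale a level is compared only with others of the same library, because ribosomal features take up part of the total. Among measured protein-coding genes, Ddit4 was at percentile 61.4 in WT and 79.3 in miR-146a-/-, and Tsc22d3 at 77.6 and 88.7. Txnip stayed at 98.8 and 99.0, and Sesn3 at 20.9 and 24.0. With the longest transcript as length in place of all exons, Foxo4 and Tsc1 changed places in miR-146a-/-. On that length Sesn1 (29.3) and Tsc22d3 (29.2) were nearly level in WT, while Tsc22d3 (23.2) stood above Sesn1 (13.4) in miR-146a-/-. The WT gap between Sesn1 and Tsc22d3 thus depends on the length used.

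The wider pathways were read from 7 lists of genes, by TMM. These lists too were chosen with earlier results of these data known, so their shares are descriptions only. Each count stands against 5.35% of all measured genes called higher and 1.53% called lower. Some called genes recur, so the counts of the lists are not separate results. Klf2, Cdkn1b and Cited2 count among both FOXO targets and other quiescence genes. Irs2 counts among FOXO regulators and targets, Ulk1 among FOXO targets and mTORC1 genes, and Sgk1 among FOXO regulators and glucocorticoid response genes. By total counts lower calls outnumbered higher ones in 6 of these lists, and in the list of other quiescence genes there were 6 of each.

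Genes that act on FOXO factors were mostly neither higher nor lower. Of 38 measured regulators, 4 were called higher and 0 lower, and the list median was 0.16. The kinase Sgk1, which phosphorylates FOXO factors as AKT does, was at 1.18 (455 and 369 counts), and the insulin receptor substrate Irs2 was at 1.01 (3564 and 2571 counts). The acetyltransferase Crebbp, a FOXO coactivator, was at 0.78, and the ubiquitin ligase Mdm2, named after its value was seen, at 0.70. At the lower end Skp2, a subunit of a ligase that degrades Foxo1, was at -0.73 (551 and 119 counts) and was not called, since its interval of -1.03 to -0.44 reached inside 1.5-fold. Of the core kinases, chosen after their values were seen, Akt1 was at -0.47, Akt2 at -0.05 and Pik3ca at 0.05.

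Of 33 measured FOXO targets, 9 were called higher, or 27.3% against 5.35% of all measured genes, and 0 lower, with a median of 0.41 against -0.01. Klf2, a factor of lymphocyte and endothelial quiescence, had 4429 and 8193 counts and was at 2.37 (2.31 to 2.42). The pseudokinase gene Trib1 was at 1.51 and the cell cycle inhibitor Cdkn1a at 1.35 (2064 and 1891 counts). Among the others called, Bbc3, Irs2, Cited2, Cdkn1b and Ulk1 lay between 0.72 and 1.01 and, apart from Irs2 and Ulk1, were named after their values were seen. Bnip3, a mitophagy receptor, was the lowest with at least 200 counts at -0.53 and was not called. Many of these genes have other inducers: Klf2, Trib1 and Cdkn1a also respond to acute stimulation. The immediate early gene Egr1 had 21710 and 43996 counts and a ratio of 2.498 (2.474 to 2.521). The part of such a response in the list was not tested.

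Inputs and components of mTORC1 lay evenly on both sides of 0. Of 48 measured genes 2 were called higher, or 4.17%, near the 5.35% of all measured genes, and 0 lower, with a median of -0.0047 and 24 ratios on either side of 0. The autophagy kinase Ulk1 was at 0.72 (0.66 to 0.79). The mTOR inhibitor Deptor was at 0.72 (0.59 to 0.85), with its lower bound at the threshold. The catalytic AMPK subunit Prkaa2 was at 0.83 (359 and 229 counts) and was not called, since its interval began at 0.58. Lamtor4, a scaffold subunit at the lysosome, was the lowest with at least 200 counts at -0.60. Mtor itself, chosen after its value was seen, was at 0.02.

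**Figure D4:**
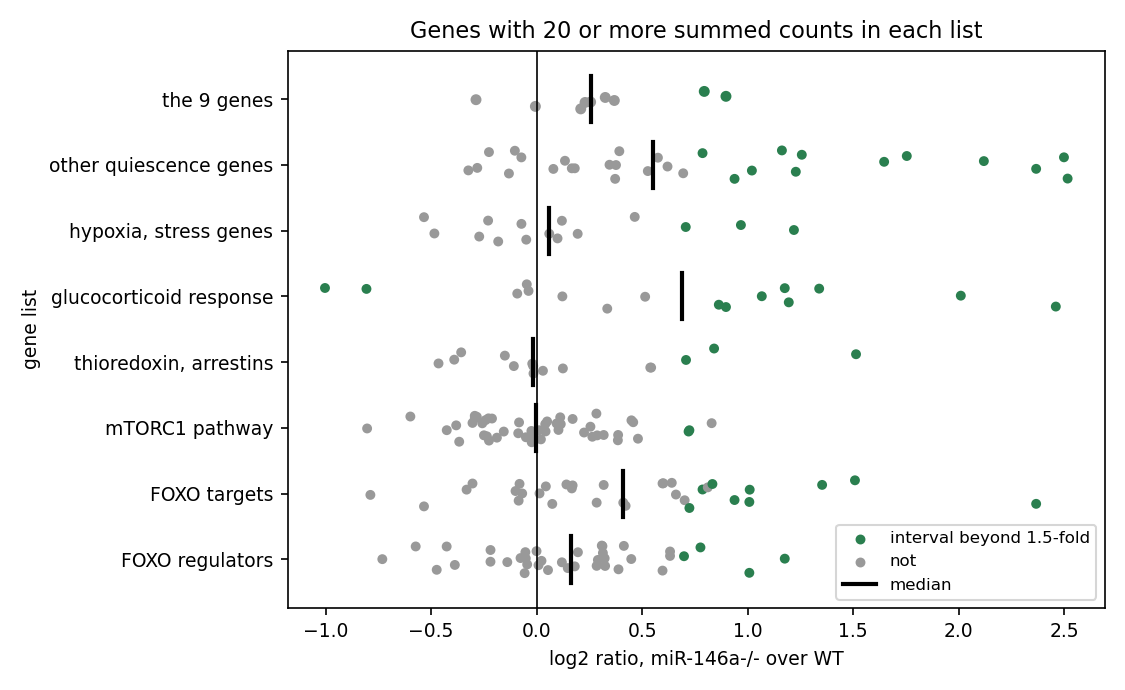
Log2 ratio of miR-146a-/- over WT by TMM for each measured gene (points, spread vertically for legibility) of 7 lists and the 9 genes. Green points have intervals beyond 1.5-fold, grey points do not, and black bars are medians. Green points lie mostly on the right in the rows of FOXO targets, glucocorticoid response and other quiescence genes, and mTORC1 genes centre on 0.

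The thioredoxin, arrestin and glucose sensing genes around Txnip had 3 of 15 measured called higher, 0 lower and a median of -0.01. The arrestin Arrdc3, a relative of Txnip, had 2613 and 1679 counts and was at 0.84 (0.75 to 0.93). The inflammasome sensor Nlrp3, whose protein binds that of Txnip, was at 1.51 (147 and 151 counts), and the glucose transporter Slc2a3 at 0.71. Mitochondrial thioredoxin, Txn2, was at -0.46 (3343 and 869 counts) and was not called.

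Genes of the glucocorticoid response, in which Ddit4, Tsc22d1, Tsc22d2 and Tsc22d4 were counted, lay on both sides of 0. Of 16 measured, 8 were called higher and 2 lower, with a median of 0.69. Ddit4 and the Tsc22d3 relatives Tsc22d1 and Tsc22d2 are among those 8, so the count and median are not separate from their values. Dusp1, a MAP kinase phosphatase, was at 2.46 (14926 and 29450 counts), Nfkbia, the inhibitor of NF-kB, at 2.01 and the clock gene Per1 at 1.34. The glucocorticoid receptor cochaperones were lower. Fkbp5, a standard reporter of glucocorticoid action, had 3451 and 708 counts and was called lower at -0.81 (-0.92 to -0.69). Fkbp4 had 11002 and 1970 counts and was called lower at -1.002 (-1.07 to -0.93). Ddit4 and Tsc22d3 thus lay with Dusp1 and Per1 and opposite to Fkbp5.

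A list of hypoxia and stress genes around Ddit4 had 3 of 15 called higher, 0 lower and a median of 0.06. It mixes roles: inducing factors such as Hif1a and Atf4, the oxygen sensors Egln1, Egln2 and Egln3 and the ligase gene Vhl, which destabilise hypoxia factors, and fellow targets such as Vegfa, Bnip3, Pdk1 and Trib3. Its count and median therefore describe no single direction of input to Ddit4. The stress response factors Ddit3 (669 and 559 counts) and Atf4 (7910 and 5550 counts) were at 1.22 and 0.97, and the hypoxia target Vegfa at 0.71. Bnip3, another hypoxia target, was at -0.53. The hypoxia factor Hif1a, chosen after its value was seen, was at -0.05.

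Other genes linked to stem cell quiescence had 12 of 30 called higher, 0 lower and a median of 0.55. Klf4 (2.52, 2.44 to 2.59), Egr1 (2.498) and Klf2 (2.37) led the list, and all are known as immediate early genes or near relatives of them. Ptpn11, a phosphatase in growth factor signalling, was the lowest at -0.32 (-0.41 to -0.23). The ratio of Ddit4, 0.90, was above those of 19 of these 30 genes and under those of Klf2, Klf4 and Egr1.

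**Figure D5:**
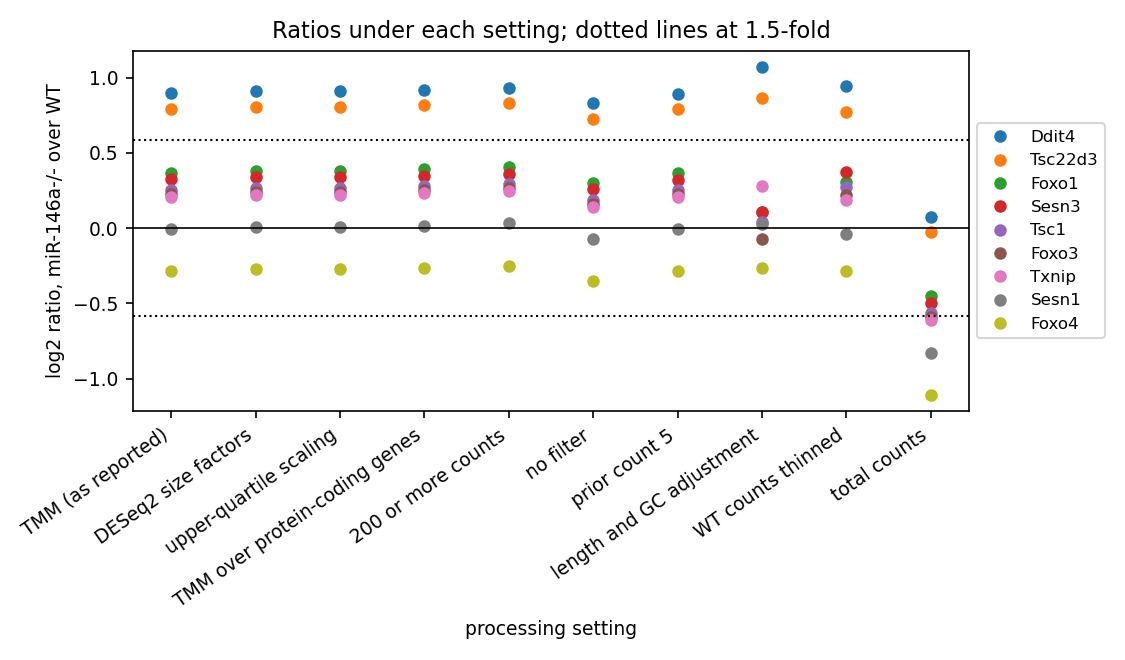
Log2 ratio of each of the 9 genes (colours) under TMM and 9 other settings, with dotted lines at 1.5-fold. Ddit4 and Tsc22d3 lie above the upper line under every setting plotted except total counts, where 8 of the 9 genes are below 0.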

How the data were processed

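The authors deposited whole-number read counts per Ensembl gene for both libraries, without normalisation. Per the file headers, junction alignments were placed on the genome and duplicates were flagged. STAR 2.5.3a, Salmon 0.9.0 and mm10 appear, without roles, in the submitters' processing notes; for the counting program, strand setting and annotation the sources used here give no name. GENCODE M21 named 37693 of 39017 identifiers.

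TMM effective sizes came from edgeR 4.0.16 (R 4.3.3) over genes with at least 20 summed counts. A prior of 0.5 counts, in proportion to library size, entered each log2 ratio. Their intervals are exact Clopper-Pearson intervals of the count share, turned into ratios. Woolf intervals were used for differences between 2 genes. Reads carried no molecular identifiers and may repeat a molecule, so every interval and floor reflects counting error alone. No quasi-likelihood test was run, for lack of replicates. The calling script was tested on simulated data. Apart from the genes set to change, both simulated libraries had the same composition, with counting noise only. The simulation therefore did not check the scaling used here. Alternatives were total counts, DESeq2 1.42.0 size factors, the upper quartile, protein-coding TMM, filters of 200 or no minimum, a 2-fold threshold, a prior of 5, length and GC deciles, and thinned WT counts. Promoter sequences, in which motifs were searched, came from RefSeq tables. The 3' untranslated regions, with the Foxo3 site, came from GENCODE M21 transcripts, and the microRNA sequence from a separate reference. Protein features were not analysed here.

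The 9 genes and the 7 lists were chosen with earlier results of these data known. Named genes were the 9, their relatives and, per list, up to 3 called either way with the interval bound farthest from 0, or else the extreme ratio among genes with at least 200 counts. Any other gene is said to be chosen after its value was seen. No gene was named for likeness of pattern, because a ratio of 2 libraries is a single number.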

Additional observations from a re-analysis of the deposited data

How the results depend on the processing

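No paired analysis was possible because each genotype had 1 library and the labels give no replicate numbers. Under 8 of the 10 alternatives, all but total counts and the 2-fold threshold, Ddit4 and Tsc22d3 were called higher and 0 of the 9 genes lower. Ddit4 ran from 0.83 to 1.07, Tsc22d3 from 0.73 to 0.87 and the members' median from 0.11 to 0.29. These 8 scale the libraries much as TMM does, so they are not separate checks of the scaling. Scaling to the total of protein-coding counts was not run, and both calls are untested under it. By total counts 0 members were higher and 2 lower (Foxo4 at -1.11 and Sesn1 at -0.83), the members' median was -0.57, Tsc22d3 was at -0.027 and Ddit4 at 0.08. By total counts the higher and lower calls were 0 and 19 for FOXO regulators, 2 and 11 for FOXO targets, 0 and 28 for mTORC1, 0 and 8 for thioredoxin and arrestins, 2 and 6 for glucocorticoid response, 0 and 8 for hypoxia and stress genes, and 6 and 6 for other quiescence genes. By construction the 2-fold threshold is stricter: higher calls were 0 for the 9 genes, 0 for FOXO regulators, 3 for FOXO targets, 0 for mTORC1, 1 for thioredoxin and arrestins, 4 for glucocorticoid response (with 0 lower) and 1 for hypoxia and stress genes. For other quiescence genes 9 higher calls were left. Of the 2 mTORC1 calls, 1 was left with no filter and with thinned counts and 0 when length and GC were adjusted for; the cause was not tested. Over all genes the 742 higher and 212 lower calls became 140 and 7077 by total counts, 294 and 42 at 2-fold, 491 and 130 with at least 200 counts, 740 and 322 with no filter, and 551 and 114 after the length and GC adjustment. Among the relatives of the 9 genes, depth was lowest for Foxo6 and Ddit4l, with 17 and 24 summed counts.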

Other observations

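The antisense gene Gm15441, which spans Txnip on the opposite strand, gave 24 counts for WT and 21 for miR-146a-/-, or 0.515 and 1.26 CPM. Its log2 ratio was 1.26 with a 95% interval from 0.37 to 2.19, so it was not called. It was chosen after its value was seen. Txnip itself, with 18465 and 7657 counts, was at 0.21.

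Of the regulators of FOXO factors, the growth factor receptors Igf1r (5088 and 2829 counts) and Insr (2743 and 1488 counts) were at 0.63 and 0.60, and the coactivator Ep300 was at 0.63. None of these 3 was called. Akt1 (-0.47) and the exportin Xpo1 (-0.57, 6178 and 1490 counts), which carries FOXO factors out of the nucleus, were on the other side of 0 and were not called. All 5 were chosen after their values were seen.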
